A study of Drosophila melanogaster with 8 samples.

Results

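The 420 tallest shared Dam-RNase H1 peaks of ecd1 wing discs are described here. They are all peaks of the ecd1 list with a height of at least 2.2 that share at least 1 bp with a peak of the control list. They make up 4.39% of the 9559 ecd1 peaks and 5.72% of the 7341 ecd1 peaks that overlap a control peak (called shared peaks below), and they cover 1.05 Mb. A further 4 ecd1 peaks reached 2.2 without a control peak and were not members. Height is the score that the authors gave each peak. Neither labels nor files state its scale. It chose the members, so member heights are a description without a test.

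The peaks come from Targeted DamID of wing imaginal discs, dissected from *Drosophila melanogaster* in the third larval instar. Every library carried a Dam construct driven by *nub* (nub>Dam or nub>Dam-RNase H1), held silent at 25 °C by heat-sensitive tub-Gal80 and released by 24 h at 29 °C from day 6 after egg laying, with dissection on day 7. The *nub* driver acts in the wing pouch, which largely limits the profile to those cells of the disc. There were 3 libraries of Dam-RNase H1 and 1 of Dam alone from control discs, and again 3 and 1 from discs carrying the temperature-sensitive allele ecd1, so control discs went through the same temperature shift. For the ecd1 library of Dam alone, the description reads Dam-RNase H1 whereas title and genotype read Dam, and the genotype was followed. The files hold 1 peak list per genotype and no value of a single library, so no height has a replicate error, depth is unknown, and no difference between genotypes could be set against the spread between replicates. The lists were made separately.

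RNase H1 recognises RNA:DNA hybrids and cuts their RNA strand. Such hybrids form where a nascent transcript pairs with its template, and a Dam fusion leaves adenine methylation at GATC sites close to where it contacts DNA. The gene *ecd* (*ecdysoneless*) is needed for ecdysone production and, through the core splicing factor Prp8, for pre-mRNA splicing. A peak marks contact of the fusion with DNA. It is not a measure of RNA, so marker genes cannot show here which cells the discs held.

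The tallest member, 3R:21662351-21663834 (build BDGP6, as for all positions), had a height of 3.89 in ecd1 and 1.74 in control. It lay over one end of *Archease*, whose product takes part in RNA ligation. The next was 3L:18786998-18787552 inside *ftz-f1*, a nuclear receptor gene of the ecdysone cascade, at 3.83 in ecd1 and 2.32 in control. Next in rank, 3L:17569246-17570580, had 3.54 and 1.82. It lay inside *Eip74EF*, an ecdysone-induced ETS factor gene, although the authors' gene table lists it for the snoRNA gene *snoRNA:Me28S-A576*. The peaks inside *ftz-f1* and *Eip74EF* were also tall in control. Both genes are long, at 50703 bp and 60654 bp, and each had 7 ecd1 peaks. The *ftz-f1* peak is also listed for the non-coding gene *CR45939*.

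The fourth, 3L:1129737-1130459, touched no annotated gene. Its heights were 3.51 and 1.43, and the nearest gene was *bab2*, a BTB transcription factor gene, 9970 bp away. CG5466 on 3R:20619801-20620265 followed with 3.39 and 2.42. The peak inside *fz2*, a receptor for Wingless, on 3L:19192610-19195808 had 3.38 and 1.35. The remaining peaks of the 15 tallest had ecd1 heights of 3.19 to 3.35. They included *vih* with its neighbours *CG10681* and *CG10646* (3L:12503456-12504394), which encodes a ubiquitin-conjugating enzyme of mitosis, at 3.35 and 2.27. The adaptor gene *cindr* with *CG15544* (3R:30826797-30828088) had 3.30 and 2.33.

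The PDZ protein gene *bbg* (3L:14475206-14477247) had 3.27 in ecd1 and 1.32 in control. Peaks at *CG13284* (2L:16846737-16847256), the phosphodiesterase gene *Pde8* (2R:23658476-23660773) and near *CG32392* (3L:6765965-6766426) all had 3.23, with control heights of 1.70, 1.79 and 1.36. A peak listed for *mael*, a piRNA pathway gene, and 3 neighbours (3L:22727701-22729017) had 3.22 and 1.15. The list of 15 ended with the peak of *CG3303* (3R:15907380-15909372) at 3.20 and 1.53 and of the RhoGAP gene *cv-c* (3R:14481560-14483390) at 3.19 and 2.05. Control heights among these 15 therefore ran from 1.15 to 2.42 while the ecd1 heights stayed within 3.19 to 3.89.

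**Figure D1:**
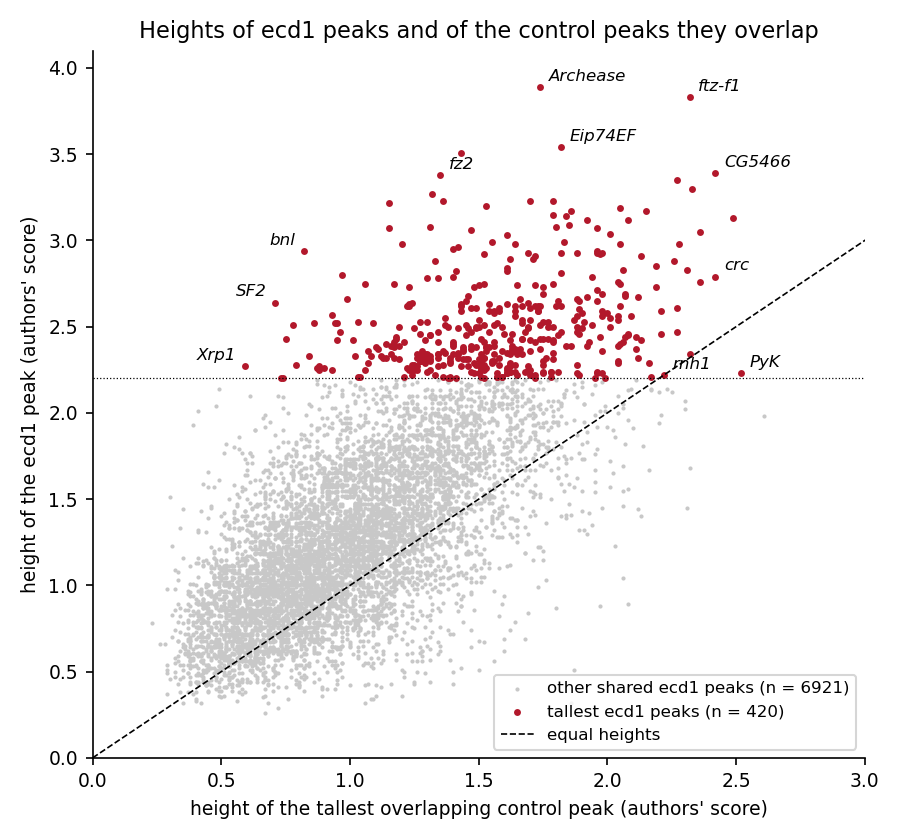
Height of each of the 7341 shared ecd1 peaks (vertical axis, authors' score) against the tallest control peak it overlaps (horizontal axis, authors' score). Red points are the 420 tallest ecd1 peaks, grey points the other 6921, the dashed line marks equal heights and the dotted line the threshold of 2.2; 418 red points lie above the dashed line, *rnh1* lies on it and *PyK* below it.

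Member heights had a median of 2.43, with a middle 50% of 2.3 to 2.62. The threshold falls in a dense part of the list. At 2.20 stood 9 members, among them *LanB1* with *cdc14* (control 1.52), *gsb-n* (control 0.74) and *inv* (control 1.39), and 14 shared peaks just outside stood at 2.19, among them *stan* (control 1.80), *Mdr49* (control 1.5) and *tej* with *Shroom* (control 2.11).

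The control peaks under the members were themselves mostly tall. Their heights ran from 0.59 to 2.52 with a median of 1.58, against 0.97 over all shared peaks. Of the 420 members, 373 (88.8%) lay on a control peak above the upper quartile of the control list (1.17), compared with 30.6% of all shared peaks. Only 11 members lay on a control peak below the control list's median of 0.88. At 18 members the control peak also reached 2.2, and these were 18 of the 28 control peaks that did so. Across the shared peaks, heights in the lists had a Spearman rho of 0.678 (7341 peaks), and within the members, a range cut by the rule, 0.273 (420 peaks). These points share libraries within each list.

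**Figure D2:**
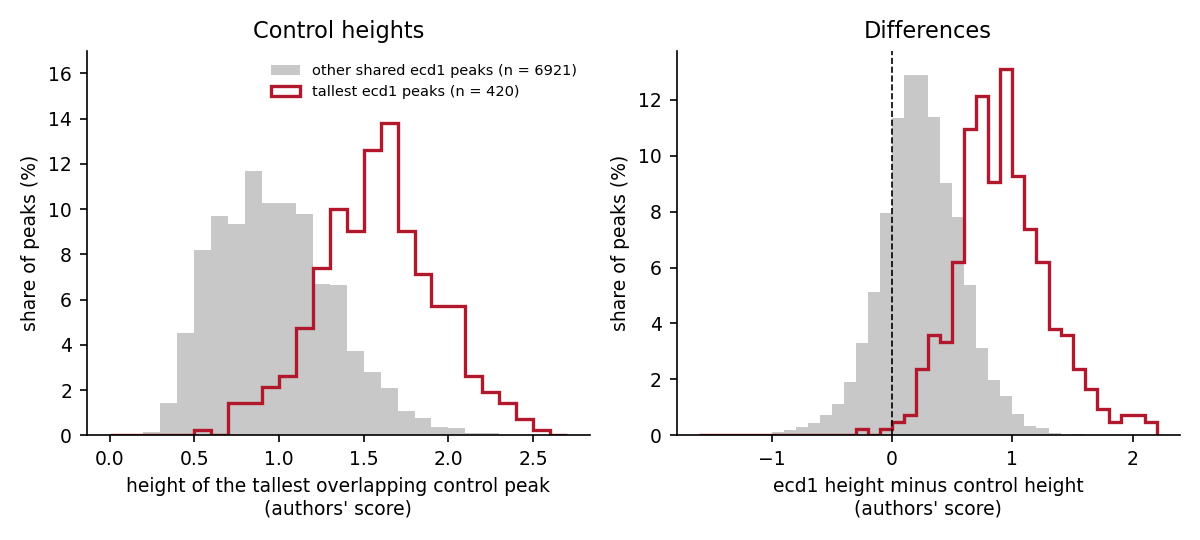
Share of peaks (vertical axis, percent) by control height (left) and by ecd1 height minus control height (right), both in the authors' score and in bins of 0.1, for the 420 tallest ecd1 peaks (red line) and the other 6921 shared peaks (grey). The medians over the 420 peaks are 1.58 for the control height and 0.915 for the difference, and the dashed line marks no difference.

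Of the 420 members, 418 were taller in ecd1 than the tallest control peak beneath them, and 79.9% of all shared peaks were taller in ecd1. The rule selects for tall ecd1 peaks, so nothing is read from this count. The median difference was 0.915, against 0.26 over all shared peaks, and 171 members (40.7%) differed by at least 1, against 3.87% of shared peaks. The opposite choice gives a scale for this. The 424 tallest control peaks that share an ecd1 peak (height of at least 1.65) had medians of 1.80 (control) and 2.07 (ecd1). Where several ecd1 peaks overlapped a control peak, the tallest was taken, which can only raise the ecd1 side. The ecd1 peak was taller at 303 of the 424 (71.5%), lower at 119 and equal at 2. Members lay on 171 of these 424 control peaks (40.3%), and these were 171 of the 420 members (40.7%).

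The largest differences were at *Archease* (2.15), at *bnl* (2.12) and at the peak without a gene on 3L near *bab2* (2.08). The gene *bnl* encodes the FGF Branchless, a ligand that directs tracheal branching, and its peak (3R:19836473-19838637) over one end of the gene had 2.94 in ecd1 and 0.82 in control. At the other end of the range, 1 member was lower in ecd1 and 1 was equal. The peak over one end of *PyK*, which encodes the glycolytic enzyme pyruvate kinase, and of the RNA polymerase III subunit gene *Polr3F* (3R:22366748-22367680) had 2.23 in ecd1 and 2.52 in control. The peak covering *rnh1*, the gene of RNase H1 itself (2R:7930442-7932433), had 2.22 in both lists. Within that peak the authors deposited a region higher in ecd1 of height 0.77. The next smallest difference was at *L* (2R:14464710-14467527), with 2.34 and 2.32.

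The lowest control height of any member, 0.59, was at *Xrp1*, a bZIP stress transcription factor gene that the title of the series names. This peak, 3R:18920161-18921551 inside the gene, had 2.27 in ecd1, and its control peak covered 95.33% of it. It was the tallest of 4 ecd1 peaks at the gene, yet the authors' gene table lists *Xrp1* with another peak, of height 1.34, and no region of the authors' deposited table of regions higher in ecd1 overlapped it. Next came *SF2*, which encodes an SR splicing factor. Its peak (3R:16341237-16341885) had identical ends in ecd1 and control and stood at 2.64 in ecd1 and 0.71 in control, and the authors' deposited table gives a region higher in ecd1 there of height 1.93. Further low control heights were at *CG10660* (2.20 and 0.73), at the paired-domain gene *gsb-n* (2.20 and 0.74) and at the Wnt pathway kinase gene *sgg* (X:2659440-2660100, 2.43 and 0.75). At all 5 the control height was below the median of the control list.

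Members were wider than other shared peaks, with a median of 2041.5 bp against 1638 bp over all shared peaks. The control peaks beneath them were wider still, at a median of 2455 bp against 1821 bp. Of the members, 200 (47.6%) were narrower than their control peak and 70 (16.7%) wider, where 33.0% of all shared peaks were wider. Both ends coincided with those of the control peak at 150 members (35.7%) and at 24.5% of shared peaks. At these 150, where both heights describe the same interval, the medians were 2.5 in ecd1 and 1.725 in control. The median difference was 0.81 and all 150 were taller in ecd1. Of the 1801 shared peaks with both ends alike, 1530 were taller in ecd1, with a median difference of 0.28. The rule selects for tall ecd1 peaks, so nothing is read from the count of 150.

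Widths spanned a wide range. The narrowest were 276 bp at *grp* and *squ* (2L:16682749-16683024), 295 bp at *TAF1B* (3R:10143875-10144169) and 382 bp at 2R:7676394-7676775 beside the spliceosome gene *U2A*. The widest were 10312 bp near *CG17129* (3L:663645-673956), 9541 bp at *SKIP* (3R:22191710-22201250) and 9539 bp at *CG18404* (3R:30253952-30263490). The FDR, the authors' q-value for a peak, was listed as 0 for 145 members (34.5%) and for 735 of the 7341 shared peaks. Among members of 2.8 or taller the share was 53.2%, and among those below 2.3 it was 25.3%.

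The authors also deposited regions called higher in one genotype than in the other, with a single region for each gene. In the authors' deposited table of regions higher in ecd1, 292 regions overlapped 283 members (67.4%), and the same held for 34.8% of all shared peaks. This contrast uses the same heights as the rule, so nothing is read from the count. The regions had a median height of 1.04, and a member so marked had a median of 61.2% of its length covered by them. Of the 326 members listed for a gene, 249 had such a region in the authors' deposited table (76.4%), and of the 94 members listed for none, 36.2% did. The part that the single region and the single peak per gene play in this was not tested. Of the 137 members with no region in the authors' deposited table, 60 had no listed gene. The median height difference was 0.78 at these 137 members and 0.95 at the 283 with a region. The peaks inside *fz2* and *bbg* and the peak near *bab2*, with differences of 2.03, 1.95 and 2.08, were among the 137.

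From the authors' deposited table, control-higher regions touched 38 members (9.05%), against 10.6% of shared peaks. Most of these contacts were at an edge. At 30 of the 38 members (78.9%) the region and the peak shared exactly 1 bp, so that the region began or ended at the edge of the ecd1 peak. Among all shared peaks touched by a control-higher region, 351 (45.1%) had contact of 1 bp only. All 30 members were narrower than their control peak, and 21 of them also carried a region higher in ecd1. The member inside *puc*, the phosphatase gene of the JNK pathway, is one of them (3R:8120296-8121472). In the authors' deposited table it has a region higher in ecd1 of height 1.31 on it and a region higher in control of height 0.86 that ends at its left edge. The tallest such bordering regions in the authors' deposited table were at *CR44572* (1.55), *aop* (0.93), *osp* (0.89) and *Bmcp* with *CG14132* (0.87).

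Regions sharing more than 1 bp were left at 8 members (1.90%), against 5.82% of shared peaks. In the authors' deposited table they had heights of 0.46 to 0.86. The tallest was at *CG7556* with *CG33939* (0.86, 578 bp shared), and the next lay in a peak listed for *emc*, an HLH gene, 3081 bp away (0.85, 489 bp shared). Inside *crc*, which encodes the fly ATF4, the authors' deposited table has a control-higher region at 2L:21313489-21314138 (0.76), 650 bp long and wholly within the member, whose heights were 2.79 in ecd1 and 2.42 in control. A peak listed for the cell death gene *hid*, 4158 bp from it, held a region of 1561 bp with 0.73 in the authors' deposited table. At 5 of the 8 members the region lay wholly within the ecd1 peak, and at *CG7556*, *emc* and *CR43484* it ran on past the edge.

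**Figure D3:**
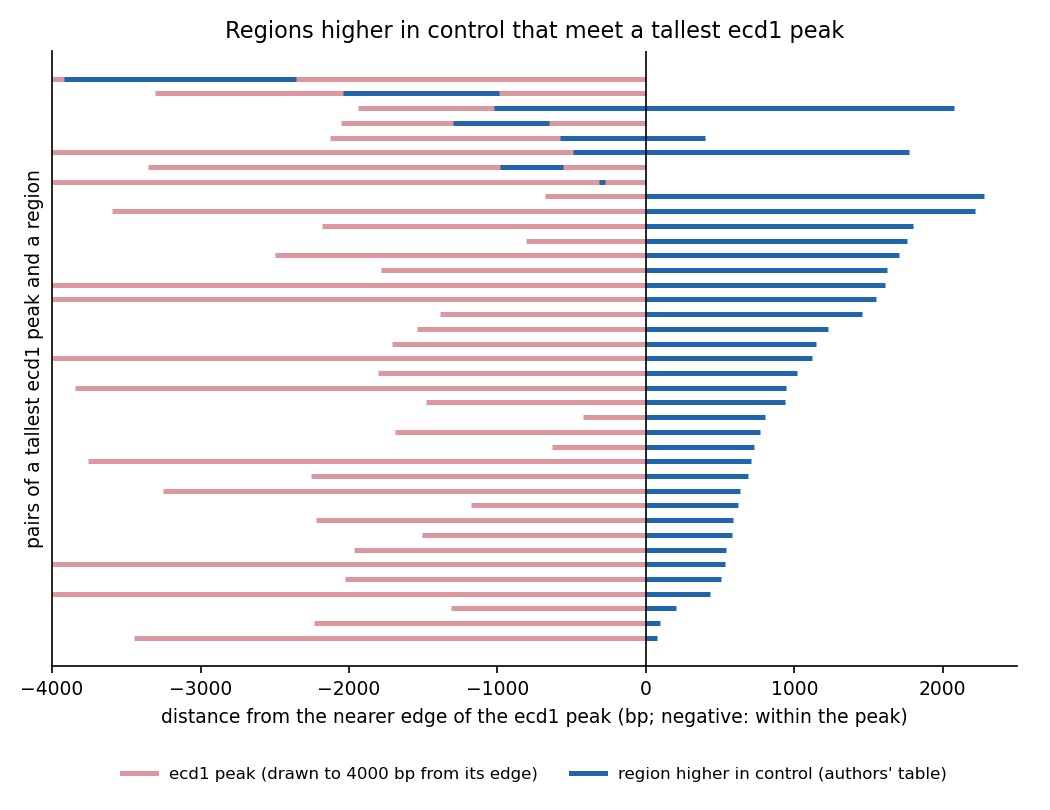
Each row is 1 of the 39 pairs of a tallest ecd1 peak (pink) and a control-higher region of the authors' deposited table (blue), drawn by distance in bp from the nearer edge of the ecd1 peak; negative distances lie within the peak, and ecd1 peaks are cut off at the left border. In 31 pairs the region meets the edge (1 bp shared), and in 8, at the top, it reaches into the peak.

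By position, 215 members (51.2%) held an end of an annotated gene, against 41.6% of shared peaks, and 149 (35.5%) lay inside a gene with no gene end, against 43.7%. The midpoint was within 500 bp of a gene end for 33.1% of members and 32.3% of shared peaks. Strand and exons were not used here. A gene was touched by 364 members (86.7%), close to the 85.3% of shared peaks. The remaining 56 members touched no gene, at a median of 2920.5 bp from the nearest and at most 98159 bp. Chromosome arm 3L held 109 members (26.0%, against 21.2% of shared peaks) and X held 61 (14.5%, against 18.6%); 2L had 71, 2R and 3R 88 each, and chromosome 4 had 3.

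The nearest other ecd1 peak had a median height of 1.205 beside members and 1.13 beside shared peaks. In 27 places 2 members lay within 10 kb of each other, so that 54 members (12.9%) had another within that distance, and no place held more than 2. They included *Eip75B* (2.83 and 2.44), *dsx*, the sex determination gene (2.41 and 2.62), *Src42A* (2.28 and 2.99), *Antp* (2.75 and 2.39), the Enhancer of split complex (3.12 and 2.41) and *Dcp-1* with *pita* (2.54 and 2.5).

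The authors' gene table pairs 522 genes with 326 of the members, up to 4 genes each. It keeps a single peak for each gene. Where several ecd1 peaks touched a gene and 1 was listed, the listed peak had the lowest FDR in 99.0% of 1787 cases and was the tallest in 63.3%, so a gene's tallest peak can be missing from it. No gene was listed for 94 members (22.4%), against 41.2% of shared peaks. Of these 94, 70 lay on a gene (16.7% of members, against 32.1% of shared peaks). For 68 of the 70 the gene was listed with another peak. The 8 members with 4 listed genes were those of *mael* (3.22), *CG12236* (3.15), *RpL26* (2.84), *y* (2.63), *Scr* (2.36), *Dark* (2.33), *grp* (2.27) and *PIG-S* (2.26). Of the 522 genes, 85.1% were protein coding, 12.5% long non-coding and 1.53% small non-coding, against 83.6%, 11.2% and 3.74% of all 8754 genes in the table.

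To count genes by function, an annotated gene was given to a member when they lay within 1000 bp. Of 9375 genes with any ecd1 peak that near, 627 had a member (6.69%). By gene length, the share was 13.5% (217 of 1612) for genes of at least 10 kb and 5.28% for shorter genes. With the tallest control peaks in place of members, the share was 7.81% of 8922 genes. The lists were chosen with earlier results of these data known, and counts over them are descriptions.

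Ecdysone response genes had a member in 9 of 34 cases (26.5%), and all 9 were among the 24 that are at least 10 kb long. By role, they were the receptor gene *EcR* (2R:6110944-6111980, 2.59 in ecd1 and 1.58 in control), and the nuclear receptor genes *ftz-f1*, *Eip75B* (3L:18010213-18014264, 2.83 and 2.06) and *Eip78C* (3L:21250951-21254484, 2.46 and 2.08). Other transcription factor genes were *Eip74EF*, *Blimp-1* (3L:5630461-5631348, 2.79 and 1.94) and *br* (X:1609446-1618499, 2.5 and 1.88). The rest were the microRNA host *let-7-C* (2L:18463560-18465040, 2.37 and 1.74) and *ImpL2*, an insulin antagonist gene (3L:4226649-4227622, 2.32 and 1.14). The authors list *Eip74EF*, *Eip75B*, *br*, *let-7-C* and *ImpL2* with other peaks, of 1.8, 1.81, 1.3, 1.39 and 0.93. In control, 12 of 33 had one of the tallest control peaks (36.4%), and 7 genes were in both sets. The median control height at the members of this list was 1.88. The peak listed for *Hr38* (2L:20715800-20716869, 2.91 and 1.72) is a member but lies 1212 bp outside the gene, so it is not in the count.

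Genes of JNK signalling, cell death and cytokines had a member in 8 of 32 cases (25.0%). This list shares *ftz-f1* with the ecdysone list. The others were *scaf* (2R:5689811-5692938, 2.92 and 1.52), a JNK target, *Ilp8* (3L:17031956-17036015, 2.82 and 1.61), the hormone through which damaged discs delay metamorphosis, and the ETS factor gene *Ets21C* (2L:551217-554542, 2.65 and 1.45). The caspase gene *Dcp-1* (2R:23550759-23552977) had 2.54 and 1.5, the apoptosome gene *Dark* (2R:17026815-17028906, 112 bp outside the gene) 2.33 and 1.08, and the JAK/STAT feedback inhibitor gene *Socs36E* (2L:18143806-18147317) 2.38 and 1.53. *puc* had 2.25 and 1.06. The authors list *Dcp-1* and *puc* with other peaks, of 1.07 and 1.45. In control, 2 of 30 genes of this list had one of the tallest peaks (6.67%), and 1 gene was in both sets. The median difference over the 8 members was 1.205, and their control heights, *ftz-f1* aside, lay between 1.06 and 1.61. Among genes under 10 kb the share was 23.5% (4 of 17).

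Stress response genes had a member in 4 of 28 cases (14.3%), and in control 1 of 27 had one of the tallest peaks (3.70%). The 4 were *crc*, the eIF2alpha kinase gene *PEK* (3R:5462602-5464276, 2.33 and 1.12), *Sesn*, a sestrin gene (2R:23722190-23723612, 2.33 and 1.02), and *Xrp1*. At *crc* the control peak was itself among the tallest, and at the other 3 the control height was at most 1.12. Heat shock and chaperone genes had a member in 0 of 24 cases and a tallest control peak in 0 of 24.

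Wing patterning genes had a member in 26 of 100 cases (26.0%), 23 of them among the 60 that are at least 10 kb long (38.3%), and in control 18 of 98 had one of the tallest peaks (18.4%). The Wnt receptor gene *fz2* led. The Notch target *E(spl)mbeta-HLH* had 2 members within 1 kb. The taller (3R:26002048-26004070, 3.12 and 2.08) lay 976 bp outside the gene and is listed for *CR45037* and *CR45038*. The other (3R:26005140-26011475, 2.41 and 1.79) overlapped the gene and is listed for it. The FGF gene *bnl* followed. The homeotic gene *Antp* (3R:6939517-6942280), the receptor gene *Egfr* (2R:21544478-21547733) and the zinc finger gene *tsh* (2L:21827722-21829260) all had 2.75 in ecd1, with control heights of 2.05, 1.52 and 1.17. The atypical myosin gene *dachs* (2L:8477587-8480326) had 2.74 and 1.72, and the Iroquois gene *caup* (3L:12609298-12610961) 2.66 and 0.99. The other 18 lay between 2.20 and 2.65 in ecd1 and between 1.39 and 2.21 in control, with the selector gene *vg* at 2.47 and 1.88, the receptor gene *N* at 2.38 and 1.54 and the ligand gene *hh* at 2.22 and 1.70. *Egfr*, *Antp*, *dachs* and *hh* are listed by the authors with other peaks, of 1.15, 1.65, 1.57 and 1.68. The same holds for *bs* (1.32), *toe* (0.89), *Wnt6* (1.92), *dve* (1.80) and *inv* (1.64).

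**Figure D4:**
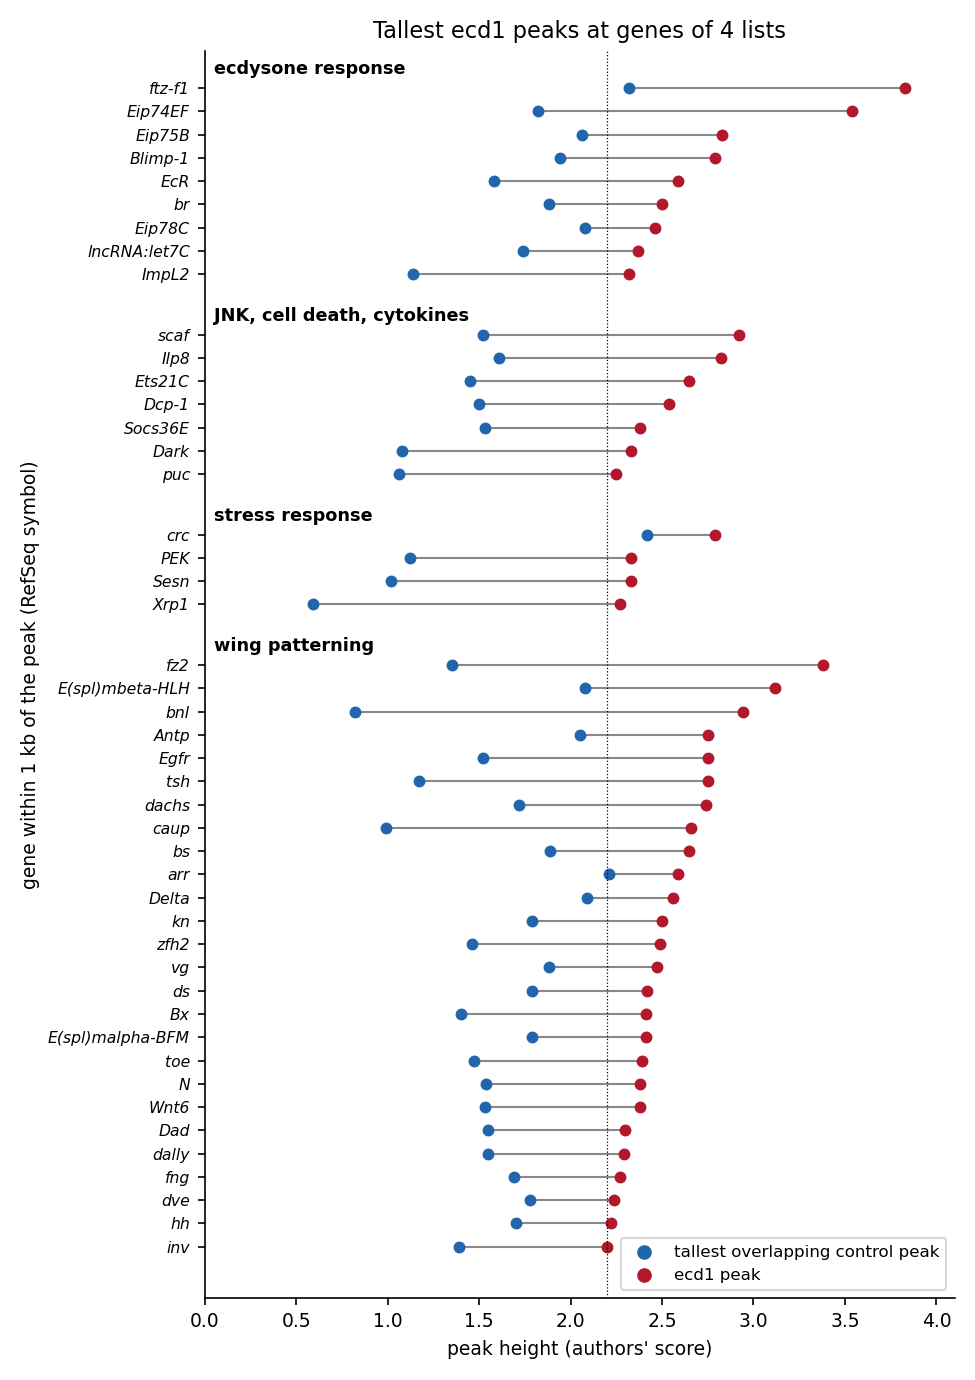
Heights in ecd1 (red) and in the overlapping control peak (blue), both the authors' score, for the tallest member within 1 kb of each gene of 4 lists; *ftz-f1*, which is in the ecdysone and the JNK list, is drawn once. The dotted line marks the threshold of 2.2; the control heights run from 0.59 at *Xrp1* to 2.42 at *crc*.

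Polycomb and Trithorax genes had a member in 5 of 22 cases (22.7%), and in control 3 of 21 had one of the tallest peaks (14.3%). Of the 5, 4 were among the 11 genes of at least 10 kb (36.4%) and 1 among the 11 shorter ones (9.09%). The BTB factor gene *psq* (2R:10579092-10581462) had 3.07 and 1.15, the chromatin remodeller gene *kis* (2L:221326-226274) 2.28 and 0.79, and *Psc* 2.21 and 1.57. The authors list *psq* and *kis* with other peaks, of 2.53 and 0.9. Ribosomal protein genes had a member in 2 of 66 cases (3.03%), *RpL26* (2.84 and 1.61, 557 bp outside the gene) and *RpS21* (2.36 and 1.98), and in control 7 of 69 had one of the tallest peaks (10.1%). Translation factors had 1 of 35 (*eIF4A*, 2.32 and 1.42, 708 bp outside the gene on a peak over one end of *chic*) and glycolysis genes 1 of 14 (*PyK*). Spliceosome genes had 2 of 27 (7.41%), *SF2* and *U2A* (2.47 and 1.82). The *U2A* member lay 32 bp outside the gene, over one end of *LRR*, and the authors list *U2A* with another peak, of 0.49. Growth and Hippo genes had 2 of 25, *Mnt* (2.69 and 1.98) and *Ras85D* (2.25 and 1.61). Genes that act on RNA:DNA hybrids had 1 of 13, *rnh1*, and histone genes 0 of 2. Small RNA genes had a member in 13 of 410 cases (3.17%), grouped on 5 peaks, and long non-coding RNA genes in 82 of 1010 (8.12%).

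Of 18 marker genes of myoblasts, trachea, blood cells, neurons and glia with an ecd1 peak, 1 had a member (5.56%), the neuronal gene *nSyb*. That peak (2.82 and 1.41) lay 682 bp outside *nSyb* and inside another gene, *Mettl2*, so none of the markers overlapped a member. In control, 1 of 16 markers had one of the tallest peaks (6.25%).

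**Figure D5:**
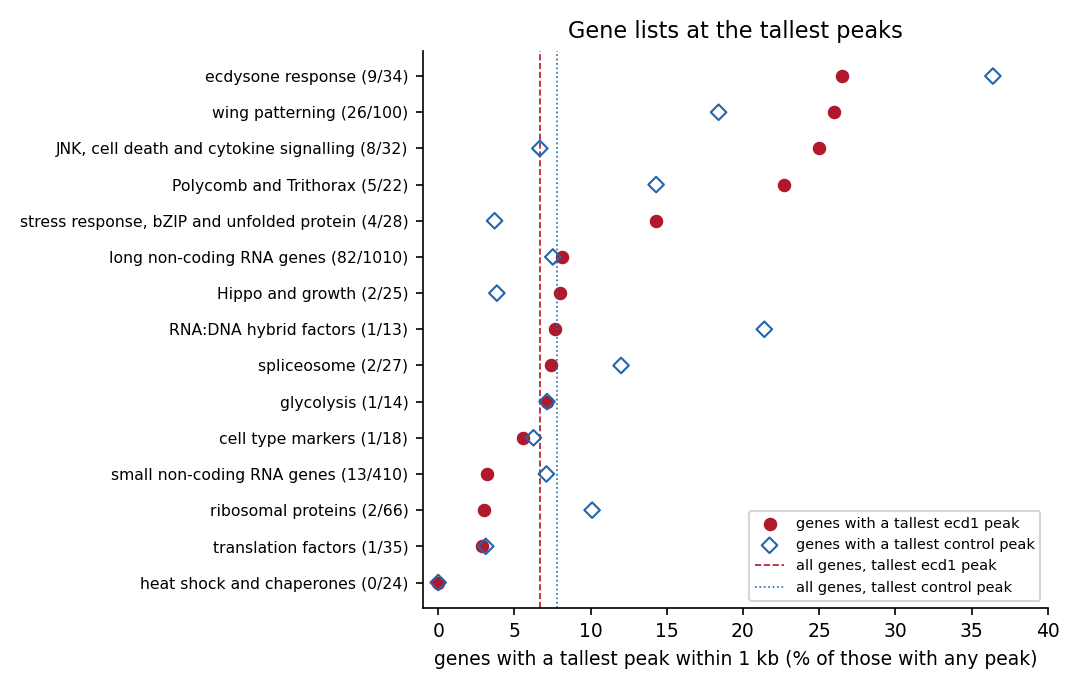
Share of the genes of each list with any peak within 1 kb that have a member that near (red points, counts beside the list name) and, among genes with a control peak, one of the 424 tallest control peaks (blue diamonds), in percent. The dashed and dotted lines mark the same shares over all genes, 6.69% and 7.81%; the JNK list stands at 25.0% for ecd1 and 6.67% for control, and the ecdysone list at 26.5% and 36.4%.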

How the data were processed

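Dam-RNase H1 binding was profiled in 8 libraries (3 Dam-RNase H1 and 1 Dam-only for each genotype), sequenced as paired reads per the labels' protocols. The deposited peak lists give for each peak a height, which is the authors' score without a stated scale, and an FDR, the q-value of the authors; the difference tables give the same for regions. The build is BDGP6 per the submitters' processing notes. How reads were aligned, peaks called, replicates combined and Dam-only libraries used is not given in the sources used here. Depth per library is unknown, and so is its effect on heights. Where a difference region, the member and its control peak had the same ends (39 members), the height in the authors' deposited table was within 0.01 of ecd1 height minus control height.

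Overlaps from 1 bp on were computed with Python 3.11.15, pandas 2.3.3 and numpy 2.4.6, after the overlap code was tested on simulated data; figures used matplotlib 3.10.9. A member's control height is that of the tallest control peak it overlaps. Positions were 1-based. Of the 8754 identifiers of the ecd1 gene table, 8726 (99.7%) matched RefSeq genes of the same release, which gave spans and types without strand.

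Named are the 15 tallest members; examples at the threshold, at both ends of the difference and of the width; members lower than control; up to 6 with a region higher in control; those with 4 listed genes; and up to 8 per gene list. The lowest control heights, the 8 members sharing more than 1 bp with a control-higher region, the neighbouring pairs, *Hr38* and some list genes were named after their values were seen. The members and lists were chosen with earlier results of these data known. With no value per library no test between genotypes was possible. Other thresholds, overlaps, matching rules and gene assignments were tried.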

Additional observations from a re-analysis of the deposited data

How the results depend on the processing

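Of 39 recomputed values, 20 moved little and 19 moved beyond 1.5 times (counts) or beyond the 95% interval of the reported median. None changed direction. That interval treats peaks as independent and measures no spread between libraries, so it serves only as a yardstick here. With a height of at least 2.0 there were 741 members, a median control height of 1.52, 729 members taller in ecd1, a median difference of 0.77, 471 members with a region higher in ecd1, 73 with one higher in control and a median width of 2216 bp. With at least 2.5 these were 174, 1.705, 174, 1.025, 130 and 14, with the width close to that reported. A reciprocal overlap of 50% gave a median control height of 1.625 and 20 members with a region higher in control. Members with the same ends in both lists had a median difference of 0.81. Regions covering at least 50% of a member left 166 members (higher in ecd1) and 1 (higher in control), and regions sharing more than 1 bp, an alternative chosen after seeing the data, left 8 higher in control. The construction of the last explains its drop: 30 members shared 1 bp only. The height threshold sets the number of members, so counts over members change with it by construction. A stricter rule of overlap or cover can likewise only keep or lower a count. The cause of the remaining shifts was not tested.

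No paired analysis was possible because no file gives values per library, and for the same reason no replicate was left out. The scale of height, the depth of the libraries and the way the lists were normalised are unknown, so a general difference in height between the lists and a difference at a given site cannot be told apart; across all shared peaks the median difference was 0.26.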

Other observations

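The 4 ecd1 peaks of at least 2.2 without a control peak were set apart by the rule. The tallest, 2L:45262-47615 at *Cda5*, a chitin deacetylase gene, had 2.75, its nearest control peak was 4848 bp away, and the authors' deposited table has a region higher in ecd1 of height 2.4 there. The peak at *LpR2*, a lipophorin receptor gene (3R:25720491-25721719), had 2.41 with the nearest control peak 13087 bp away. Peaks at *borr*, a chromosomal passenger gene (2L:9252033-9252723), and at *fru*, a sex determination gene (3R:18436671-18437748), both had 2.22, with control peaks 1188 bp and 1745 bp away.

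Tall peaks also lay far from any annotated gene. On 3L, 3L:26465657-26467262 and 3L:26469515-26471994 both had 2.43 in ecd1, with 1.77 and 1.67 in control, 94301 bp and 98159 bp from *CG42598*, and 3L:27018491-27019814 had 2.47 and 0.96, 62277 bp from *CG40228*. These 3 members have no listed gene.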
